A study of Homo sapiens with 59 samples.

Results

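EGR2, GBX1, GBX2, FGF3 and PHOX2A are 5 regulators known from the segmented hindbrain. They were taken by symbol from the 19084 genes of an RNA sequencing series of 59 libraries. In these neural stem cells GBX2 and GBX1 were detected often enough to be tested, and GBX2 changed with CHIR99021 exposure. It was above 0 in 9 of the 12 libraries of 54 to 72 h and in 1 of the 12 of 2 to 8 h. GBX1 was above 0 in 10 scattered libraries and in none after 42 h. EGR2, FGF3 and PHOX2A were listed at 0 in 56, 56 and 55 of the 59 libraries. The name hindbrain segment regulators therefore describes what the 5 genes are known for, and most of them were hardly detected here.

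The starting cells were WA09, also called H9, a long-established line of human embryonic stem cells, and the libraries were made from neural stem cells grown out of it. The cells first received FGF8b at 200 ng per mL, were then kept with CHIR99021, an inhibitor of the kinase GSK3 that turns on canonical WNT signalling, and finally had 4 days in medium with retinoic acid before lysis. The groups are 20 lengths of CHIR99021 exposure, every 2 h up to 24 h and every 6 h up to 72 h, with libraries labelled A1, A2 and B1 at each and no B1 library at 48 h. Every group shares the cell line, the FGF8b and the retinoic acid, and cells kept longer with CHIR99021 were also longer in culture. Cells never given CHIR99021 were not analysed here. For comparison, consecutive times were joined by 4 into the windows 2 to 8 h, 10 to 16 h, 18 to 24 h, 30 to 48 h (11 libraries) and 54 to 72 h, with 12 libraries in each of the others. Whether the replicates were separate cultures is not labelled. The p-values below therefore measure only how far these libraries spread, which may be technical.

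The hindbrain is laid out as a row of segments, the rhombomeres, each with its own set of transcription factors. GBX2 is a homeobox repressor that, with OTX2 on the other side, sets the boundary between midbrain and hindbrain, and in mouse it is needed for the first rhombomeres. EGR2, also called KROX20, is a zinc finger factor of the odd-numbered rhombomeres of the middle hindbrain that in mouse switches on EPHA4 and HOXB2. FGF3 is a secreted growth factor of the hindbrain that acts on the ear rudiment beside it. PHOX2A is a homeobox factor of hindbrain visceral motor and noradrenergic neurons, and GBX1 is the paralog of GBX2, known from the dorsal spinal cord.

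Values are in TPM, transcript abundance scaled to 1 fixed sum per library. No sequencing depth can be read from TPM, and a value of 0 carries no detection limit. Libraries had between 9558 and 15406 genes above 0, with a median of 13258. The fewest genes at 1 TPM or more were in 72 h A2 (9348), 4 h B1 (9695) and 42 h B1 (9924), where the median library had 12594. In 4 h B1, SOX2, a neural stem cell factor, was also listed at 0. Of the 10 neural stem cell markers, PAX6, NES, VIM and SOX3 were among those above 0 in all 59 libraries, and PAX6 was at no less than 85.7 TPM. SOX1, HES5 and FABP7 were above 0 in 56, 55 and 51 libraries. In the window of 2 to 8 h each of these 3 was above 0 in 9 of 12 libraries, at means of 1.30, 4.94 and 3.83 TPM. Being above 0 in few libraries was common: 18% of all genes were above 0 in no more libraries than EGR2 or FGF3, 19.0% in no more than PHOX2A, 22.9% in no more than GBX1 and 27.8% in no more than GBX2.

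**Figure D1:**
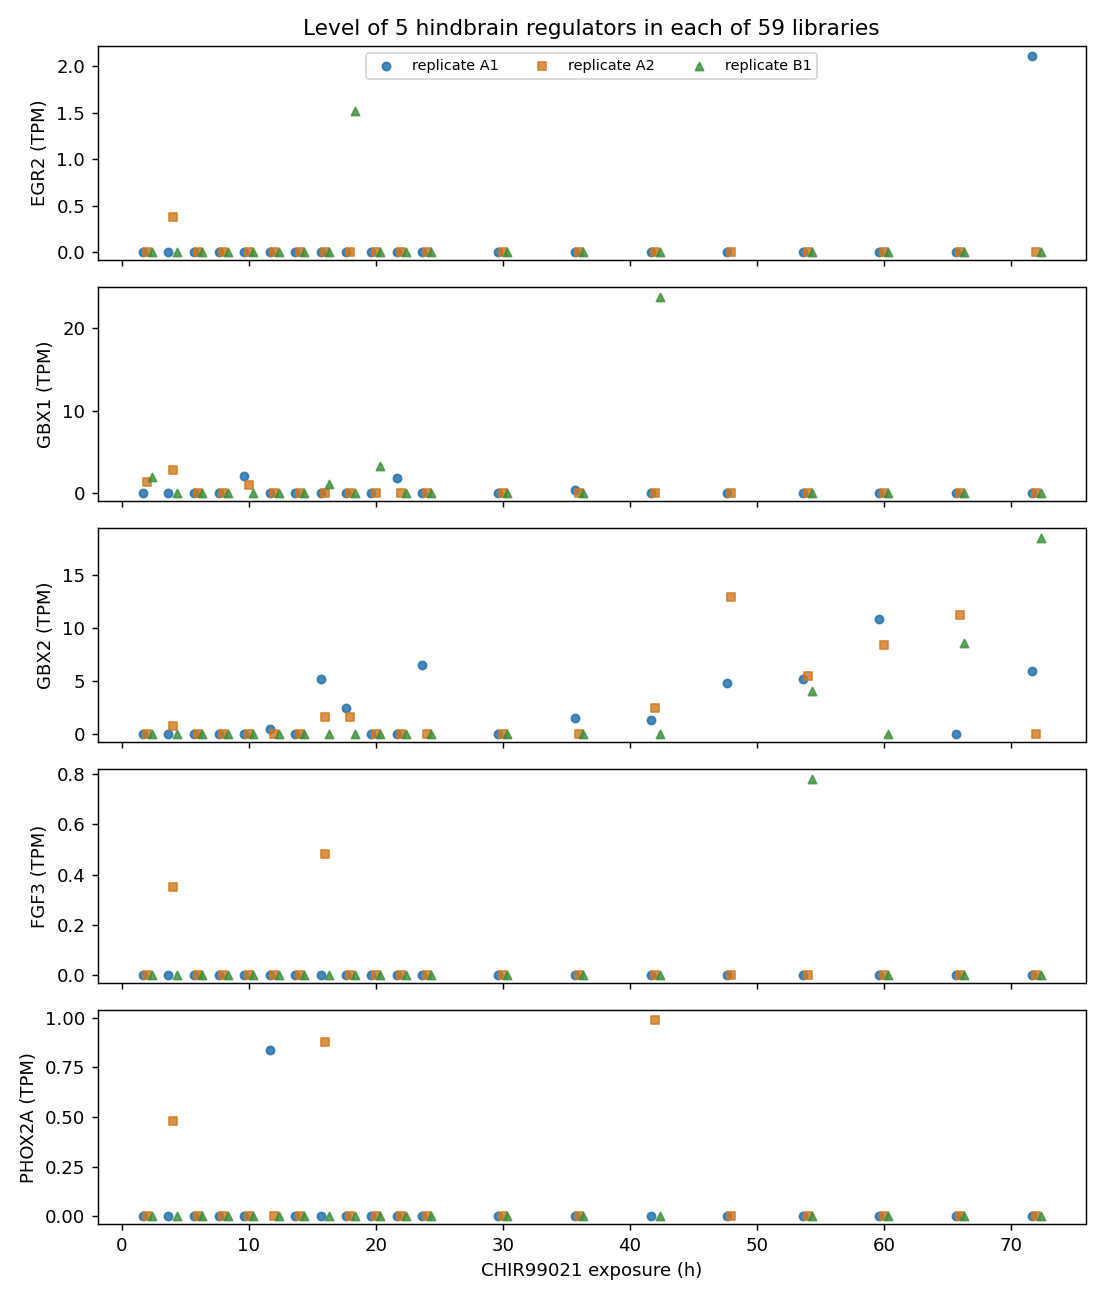
TPM of each gene (y axis, one linear scale per gene) in each of the 59 libraries against hours of CHIR99021 (x axis), with one marker per replicate label, slightly offset in time. GBX2 values gather from 48 h on, while the highest GBX1 value is a single library of 42 h at 23.8 TPM and the other genes stay at or below 2.11 TPM.

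GBX2 was listed at 0 in most libraries of the first day and rose late. Up to 14 h it was above 0 in 2 libraries, at 0.82 TPM in 4 h A2 and 0.54 TPM in 12 h A1. At 16 h it was at 5.23, 1.68 and 0 TPM in A1, A2 and B1, and at 18 h at 2.46, 1.6 and 0 TPM. It was back at 0 in all 6 libraries of 20 and 22 h, and at 24 h it was at 6.56 TPM in A1 and at 0 in both others. The first-day values above 0 were thus in A1 and A2 alone, and both labels had them at 16 and 18 h.

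From 36 h on more libraries had GBX2. It was listed at 0 in the 3 libraries of 30 h, was at 1.5, 0 and 0 TPM at 36 h, and was at 1.35, 2.52 and 0 TPM at 42 h. Both libraries of 48 h had it, at 4.83 and 12.9 TPM. At 54 h all 3 libraries had it, at 5.16, 5.47 and 4.09 TPM (4.91 ± 0.724 TPM, SD, n = 3). At 60 h it was at 10.9, 8.42 and 0 TPM, at 66 h at 0, 11.2 and 8.62 TPM, and at 72 h at 5.93, 0 and 18.5 TPM. From 60 h each time point therefore held 1 library at 0 beside 2 between 5.93 and 18.5 TPM, and a different replicate label was at 0 each time. Of these 3 libraries at 0, 72 h A2 had the fewest genes above 0 of all 59 (9558). In this ranking 66 h A1 was 6th from the fewest (11854) and 60 h B1 was 14th (12728). The 9 libraries of 54 to 72 h with GBX2 had from 12451 (66 h B1) to 13576 (54 h B1) genes above 0. Among them 66 h B1, 72 h A1 (12564) and 72 h B1 (12714) had fewer than 60 h B1, with GBX2 at 8.62, 5.93 and 18.5 TPM. The part of library quality in the zeros was not tested.

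Over the 5 windows in order, GBX2 was above 0 in 1, 3, 3, 5 and 9 libraries, and its mean was 0.0683, 0.621, 0.885, 2.10 and 6.52 TPM. In the 12 libraries of 54 to 72 h the lowest value was 0, the median 5.70 and the highest 18.5 TPM, against a lowest and median of 0 and a highest of 0.82 TPM in the 12 of 2 to 8 h. All 9 late values above 0 lay over the highest early one, and the 3 late zeros overlapped it. As log2(TPM + 1), a scale that makes the changes of low genes look smaller, GBX2 rose by 2.30 (SE 0.40, adjusted p = 1.231e-05, limma with Benjamini-Hochberg adjustment over 15305 genes). Of all tested genes 30.1% passed in this contrast, 14.3% upward and 15.8% downward, so a call as such was common. A two-sided permutation test over the libraries, chosen after seeing the data, gave p = 0.00042 for the same difference, 0.00189 after adjustment over 9 tests. With a pseudocount of 0.1 in place of 1 the difference was 4.47 (adjusted p = 6.771e-05), so its size depends on how zeros are handled.

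In bulk RNA, fewer cells carrying a transcript and less of it per cell cannot be told apart. Other cell type markers also moved between these windows. The 8 epithelial and surface ectoderm markers all passed downward and summed to between 447 and 757 TPM at 54 to 72 h, against 1150 to 3282 TPM at 2 to 8 h, with no overlap. Of 14 early neuron genes 12 passed upward and none downward, and their sum had a median of 496 TPM at 54 to 72 h and of 285 TPM at 2 to 8 h. Their part in the GBX2 result was not tested.

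The curve of GBX2 over all 20 times passed the F-test (adjusted p = 8.594e-06, limma, natural spline), and that of GBX1 did not (adjusted p = 0.580). In that test 36.8% of all genes passed, against 1 of the 2 members tested. None of the 3 shorter contrasts run passed for GBX2, and the window of 10 to 16 h entered none of them. The difference was 0.44 (SE 0.40, adjusted p = 0.513 with limma) for 18 to 24 h minus 2 to 8 h, where 20.0% of genes passed, 10.5% upward and 9.45% downward. It was 0.65 (SE 0.42, adjusted p = 0.579 with limma) for 30 to 48 h minus 18 to 24 h, where 1.56% passed, 0.451% upward and 1.11% downward. For 54 to 72 h minus 30 to 48 h it was 1.21 (SE 0.42, adjusted p = 0.0762 with limma), where 5.57% passed, 2.86% upward and 2.70% downward. Without the 3 libraries with fewest genes this last difference was 1.38 and passed (adjusted p = 0.0196, limma). Without the 6, 30 and 54 h time points it was 0.76 (adjusted p = 0.490, limma), and with each replicate left out it ranged from 0.98 to 1.41 with no pass (adjusted p between 0.212 and 0.256, limma).

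The mean of GBX2 was highest at 48 h, at 8.86 ± 5.70 TPM (SD, n = 2), and first reached 50% of that value at 44.5 h by linear interpolation. Without the 3 libraries with fewest genes the highest mean was 12.2 TPM at 72 h and the crossing came at 45.6 h. The replicate labels gave different times: 23.7 h in A1, 44.3 h in A2 and 66.4 h in B1. GBX2 was above 0 in 10 of 20 A1 libraries, 8 of 20 A2 libraries and 3 of 19 B1 libraries, those of 54, 66 and 72 h. B1 libraries had a median of 12917 genes above 0, A1 libraries 13512 and A2 libraries 13286. In the 54 to 72 h window each label had 3 of 4 libraries above 0, and the means were 5.49, 6.28 and 7.80 TPM in A1, A2 and B1.

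**Figure D2:**
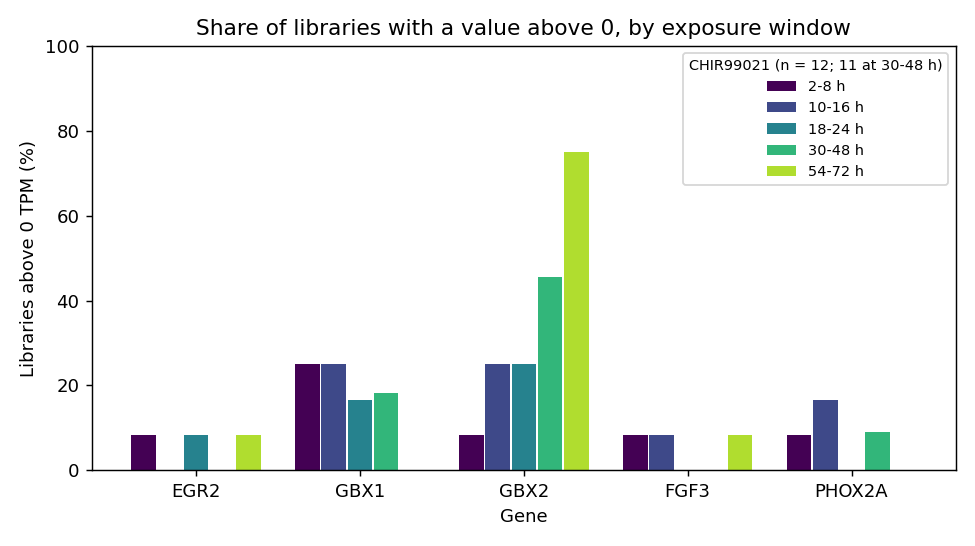
Percent of libraries in which each gene was above 0 TPM (y axis) in the 5 windows of CHIR99021 exposure, from 2 to 8 h (darkest bar) to 54 to 72 h (lightest bar). The GBX2 bars climb to 9 of 12 libraries, the GBX1 bars end at 0 of 12, and a missing bar means that the gene was at 0 in the whole window.

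GBX1, the paralog, had scattered values. It was above 0 in 10 libraries: at 2 h (1.35 TPM in A2 and 1.93 in B1), 4 h (2.88 in A2), 10 h (2.12 in A1 and 1.03 in A2), 16 h (1.16 in B1), 20 h (3.37 in B1), 22 h (1.83 in A1), 36 h (0.38 in A1) and 42 h (23.8 in B1). At no time was it above 0 in all 3 replicates. The 42 h B1 value exceeded the next highest by far, and that library is 1 of the 3 with fewest genes. All 12 libraries of 54 to 72 h listed GBX1 at 0, against 3 of 12 above 0 at 2 to 8 h, up to 2.88 TPM.

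The difference for GBX1 between 54 to 72 h and 2 to 8 h was -0.40 (SE 0.32, adjusted p = 0.384 with limma), and no other window contrast passed. Its 30 to 48 h minus 18 to 24 h difference was 0.12 with all libraries, -0.13 without replicate B1 and -0.26 without the 3 libraries with fewest genes, 42 h B1 among them. Its 18 to 24 h minus 2 to 8 h difference was -0.09, and 0.26 without replicate A2. The highest time-point mean, 7.95 ± 13.8 TPM at 42 h (SD, n = 3), came from that library, and without the same 3 libraries no time-point mean exceeded 1.44 TPM. The 2 paralogs differed in their change between 54 to 72 h and 2 to 8 h: GBX2 minus GBX1 changed by 2.69 (two-sided permutation test over 12 and 12 libraries, p = 0.00024, adjusted p = 0.00189 over 9 tests), the test being chosen after seeing the data. They were above 0 together in 2 libraries, 4 h A2 and 36 h A1.

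The promoters of GBX2 and GBX1 are shown because these paralogs differed in their course. Each is the 250 bases before the start in RefSeq on GRCh38.p14, read 5′ to 3′ on the minus strand, GBX2 at chr2:236168387-236168636 and GBX1 at chr7:151167695-151167944. Capitals mark matches, on either strand, to GGGCGG (a GC box), CCAAT and CACGTG (an E-box).
GBX2: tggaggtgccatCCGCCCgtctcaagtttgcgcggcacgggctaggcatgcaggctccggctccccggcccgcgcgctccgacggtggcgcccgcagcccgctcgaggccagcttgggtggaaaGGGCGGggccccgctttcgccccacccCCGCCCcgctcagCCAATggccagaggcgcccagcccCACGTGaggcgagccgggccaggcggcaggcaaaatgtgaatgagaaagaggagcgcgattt
GBX1: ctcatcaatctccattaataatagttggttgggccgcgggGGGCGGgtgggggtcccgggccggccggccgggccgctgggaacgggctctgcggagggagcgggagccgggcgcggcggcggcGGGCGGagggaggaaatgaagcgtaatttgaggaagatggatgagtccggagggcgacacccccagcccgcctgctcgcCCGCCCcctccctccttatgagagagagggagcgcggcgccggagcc
Both are rich in G and C, at 72.0% and 71.2% against a median of 58.0% over 35116 promoters of that length, and each holds 28 CpG pairs. Each has 3 matches to GGGCGG, which occurs in 42.6% of those promoters. GBX2 alone of the pair has CACGTG (in 6.35% of promoters) and CCAAT (in 32.0%). The letters CTTTGAT and CTTTGTT, forms of the motif of the TCF/LEF factors that act in WNT signalling, occur in 2.26% and 4.50% of promoters and in neither of these windows. A match is a description of letters and not a binding site.

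EGR2 was above 0 in 3 libraries: 4 h A2 at 0.38 TPM, 18 h B1 at 1.52 TPM and 72 h A1 at 2.11 TPM. Each stood beside 2 replicates at 0. It did not pass the filter of 1 TPM in at least 3 libraries, and with no filter its course did not pass (adjusted p = 0.290, limma). Its relative EGR1, an immediate early gene, was at 7.66, 3.39 and 32.5 TPM in the same 3 libraries, and FOS, another immediate early gene, at 3.64, 0 and 15.8 TPM. EGR2 at its highest was thus in a library where EGR1 was at 32.5 TPM. EGR1 averaged 31.4 ± 4.80 TPM over all 3 libraries of 72 h, however, and 2 of them had EGR2 at 0. EGR1 rose over the course: it averaged 25.2 ± 8.73 TPM at 54 to 72 h, against 5.94 ± 4.49 TPM in the window of 2 to 8 h (SD, n = 12 each), a difference of 2.21 (SE 0.43, adjusted p = 6.043e-05, limma). NAB2, a corepressor that binds EGR proteins and was chosen after its values were seen, averaged 22.1 ± 5.22 TPM at 54 to 72 h, against 8.32 ± 5.65 TPM in the window of 2 to 8 h (SD, n = 12 each), a difference of 1.71 (adjusted p = 0.000363, limma). Of 10 tested immediate early genes 4 rose and none fell between these windows.

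EPHA4, an Eph receptor that EGR2 switches on in mouse, was present in libraries where EGR2 was listed at 0. It averaged 11.5 ± 9.44 TPM at 2 to 8 h, 4.24 ± 1.68 TPM at 18 to 24 h, then 14.5 ± 4.48 TPM by 54 to 72 h (SD, n = 12 each). Its difference of 54 to 72 h minus 2 to 8 h was 0.76 (adjusted p = 0.0156, limma), but was lost without any 1 replicate label (adjusted p between 0.0531 and 0.207, limma) and was -0.20 for 66 and 72 h against 2 and 4 h.

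Of the HOX genes of the hindbrain, HOXB1, HOXB2 and HOXB4 were among those that rose. HOXB1, the factor of the fourth rhombomere, averaged 157 ± 55.5 TPM at 54 to 72 h, against 26.9 ± 21.7 TPM in the window of 2 to 8 h (SD, n = 12 each), a rise of 3.01 (SE 0.37, adjusted p = 7.788e-09, limma). HOXB2 averaged 86.5 ± 16.3 TPM at 54 to 72 h, against 20.8 ± 10.5 TPM in the window of 2 to 8 h, a rise of 2.15 (SE 0.19, adjusted p = 1.215e-12, limma). HOXB4, whose front border lies in the last rhombomeres, averaged 8.38 ± 5.18 TPM at 2 to 8 h, 102 ± 37.4 TPM at 18 to 24 h, then 56.1 ± 20.0 TPM by 54 to 72 h. Its difference of 54 to 72 h minus 2 to 8 h was 2.76 (adjusted p = 1.849e-15, limma). Of the 15 hindbrain segmentation factors reported here 11 rose and 1 fell between 54 to 72 h and 2 to 8 h, with a median difference of 1.01 against -0.04 over all tested genes. Of 9 ephrins and Eph receptors of rhombomere boundaries 5 rose and 1 fell. EFNB1, a membrane-bound ligand of Eph receptors, averaged 106 ± 38.8 TPM at 54 to 72 h, against 35.6 ± 15.4 TPM in the window of 2 to 8 h (difference 1.57, adjusted p = 3.897e-08, limma). EPHB1, a receptor for such ligands, averaged 6.46 ± 3.31 TPM and 1.12 ± 1.16 TPM in the same 2 windows (difference 1.86, adjusted p = 6.064e-06, limma).

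**Figure D3:**
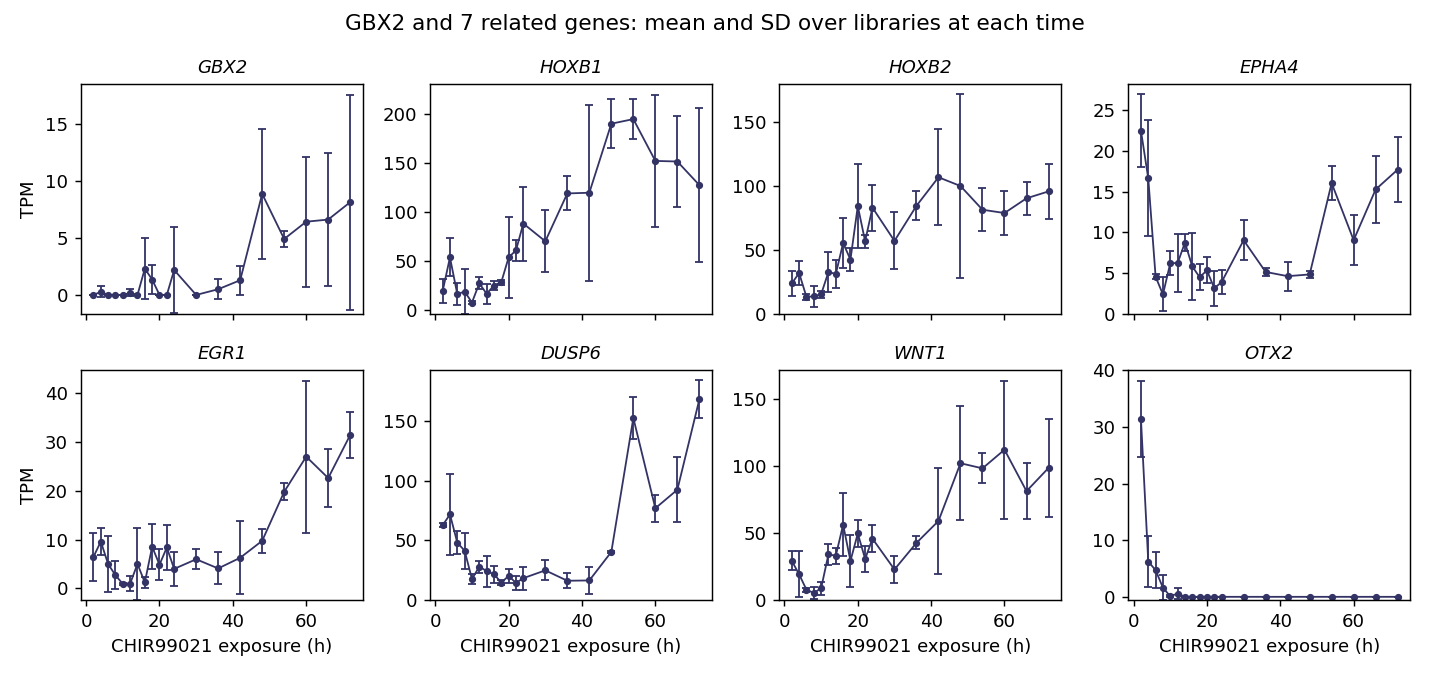
Mean TPM (y axis, one linear scale per gene) with SD over the 2 or 3 libraries of each time against hours of CHIR99021 (x axis), for GBX2 and 7 genes that act beside the 5 regulators. HOXB1, HOXB2, EGR1, DUSP6 and WNT1 were higher at 54 to 72 h than at 2 to 8 h, and OTX2 was listed at 0 from 14 h on.

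Genes of the midbrain-hindbrain boundary, where GBX2 meets OTX2, were seldom present as a set. OTX2, the forebrain and midbrain factor, averaged 11 ± 13.0 TPM in the 12 libraries of 2 to 8 h and was listed at 0 in all libraries from 14 h on. GBX2 first reached 1 TPM at 16 h, so OTX2 was at 0 in all libraries with GBX2 at that level. From 14 h on OTX2 was equally at 0 in the libraries without GBX2, so whether the 2 genes exclude each other was not tested. In 4 h A2 GBX2 was at 0.82 TPM, and OTX2 averaged 6.23 ± 4.57 TPM over the 3 libraries of 4 h. WNT1, a WNT ligand of the boundary and of the dorsal neural tube, averaged 97.7 ± 31.1 TPM at 54 to 72 h, against 15.5 ± 12.9 TPM in the window of 2 to 8 h (SD, n = 12 each), a rise of 3.21 (SE 0.37, adjusted p = 2.071e-09, limma). LMX1B, a homeobox factor of the boundary, averaged 1.16 ± 2.80 TPM at 54 to 72 h, against 7.74 ± 5.50 TPM in the window of 2 to 8 h and fell by 2.24 (adjusted p = 4.44e-06, limma). The defining boundary genes EN1, EN2, PAX5, FGF8 and FGF17 were above 0 in 2, 3, 3, 6 and 2 of the 59 libraries. Of 8 tested boundary genes out of 13, 2 rose (WNT1 and FGF18) and 2 fell (OTX2 and LMX1B) between 54 to 72 h and 2 to 8 h, and the FGF18 call was lost without replicate A1 (adjusted p = 0.274, limma).

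FGF3 was above 0 in 3 libraries, at 0.35 TPM in 4 h A2, 0.48 TPM in 16 h A2 and 0.78 TPM in 54 h B1, and never reached 1 TPM. With no filter its course did not pass (adjusted p = 0.923, limma). Of 15 further FGF ligand genes 11 were tested, of which 5 rose and none fell between 54 to 72 h and 2 to 8 h. FGF18, which also rose, is counted with the boundary genes above and not here. Of the 5 rises here, FGF11, FGF12 and FGF13 belong to a branch of the family that stays inside the cell, and FGF1 and FGF9 lie outside that branch. FGF13 was the most abundant of these, at 151 ± 50.4 TPM at 54 to 72 h, against 72.9 ± 17.5 TPM in the window of 2 to 8 h (SD, n = 12 each; difference 0.99, adjusted p = 4.304e-08, limma). The call of FGF9 was lost without replicate A2 (adjusted p = 0.122, limma) and that of FGF11 with 66 and 72 h against 2 and 4 h (adjusted p = 0.161, limma). Those of FGF1 and FGF12 were lost without replicate A1 (adjusted p = 0.186 and 0.269, limma) and without B1 (adjusted p = 0.317 and 0.349, limma). DUSP6, a phosphatase induced by FGF signalling that dampens ERK, averaged 55.9 ± 20.5 TPM at 2 to 8 h, 17.0 ± 6.00 TPM at 18 to 24 h, then 122 ± 43.3 TPM by 54 to 72 h. It rose by 1.11 (SE 0.22, adjusted p = 7.409e-05, limma) between 54 to 72 h and 2 to 8 h, and 9 of 15 FGF receptors and feedback genes rose while 2 fell. Genes of the ear rudiment, beside which FGF3 is known, were counted together with genes of other placodes. This list gave 1 rise and 5 falls among 9 tested, and does not speak for the ear rudiment alone. It holds SOX2, named above as a neural stem cell factor, which averaged 141 ± 55.9 TPM at 54 to 72 h, against 40.1 ± 22.7 TPM at 2 to 8 h. The ear marker OC90 was at 0 in all libraries.

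PHOX2A was above 0 in 4 libraries, at 0.48 TPM in 4 h A2, 0.84 TPM in 12 h A1, 0.88 TPM in 16 h A2 and 0.99 TPM in 42 h A2. It never reached 1 TPM and was at 0 in all libraries of 18 to 24 h and of 54 to 72 h. With no filter its course did not pass (adjusted p = 0.813, limma).

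Other genes of visceral motor and noradrenergic neurons were mostly low. Of the 16 such genes reported here 9 were tested, of which 1 rose and 1 fell between 54 to 72 h and 2 to 8 h. HAND2 was at 0 in all libraries, TBX20 was above 0 in 1, and TH and CHAT, the enzymes of dopamine and acetylcholine synthesis, in 2 each. DBH of the same list was above 0 in 23 libraries. These were 0 of 12 at 2 to 8 h, 9 of 12 at 10 to 16 h, 8 of 12 at 18 to 24 h and 1 of 12 at 54 to 72 h. Its highest window mean was 1.77 ± 1.39 TPM, at 10 to 16 h, and its course passed (adjusted p = 0.000246, limma). Of the 9 tested genes 4 passed the course test, against 36.8% of all genes. SLC18A2, the vesicular monoamine transporter, averaged 12.2 ± 5.48 TPM at 54 to 72 h, against 0.802 ± 1.10 TPM in the window of 2 to 8 h (SD, n = 12 each), a rise of 2.94 (SE 0.27, adjusted p = 3.24e-12, limma). GATA3, a zinc finger factor of such neurons and of surface ectoderm, averaged 0.302 ± 0.546 TPM and 9.43 ± 8.01 TPM in the same 2 windows and fell by 2.53 (adjusted p = 1.25e-07, limma). The epithelial markers given above fell between the same windows, and their part in the fall of GATA3 was not tested.

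The 5 regulators were seldom found together. No member was above 0 in 29 libraries, 1 in 23 libraries, 2 in 5 libraries and 3 in 1 library. In 4 h A2 all 5 were above 0, at 0.38 TPM for EGR2, 2.88 for GBX1, 0.82 for GBX2, 0.35 for FGF3 and 0.48 for PHOX2A. That library also had the most genes above 0 of all, 15406 against 14071 in the next. It held the lowest value above 0 of EGR2, FGF3 and PHOX2A alike, and the share of its wider detection in these values was not tested.

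Patterns were ranked over the 13169 genes that reached a mean of 5 TPM at 1 or more times. Those most like GBX2 in Pearson correlation over the 20 time-point means of log2(TPM + 1) were NPPA (0.893), FRRS1L (0.892), PTGS1 (0.890), NDUFA4L2 (0.877) and MDGA1 (0.871). The points share their libraries, and the correlations are a description. NPPA averaged 17.1 ± 12.2 TPM at 54 to 72 h, against 0.0267 ± 0.0924 TPM in the window of 2 to 8 h, and MDGA1 averaged 13.4 ± 3.53 TPM and 0.130 ± 0.211 TPM in the same windows (SD, n = 12 each). Without the 3 libraries with fewest genes the first 5 were ADAMTSL1, PTGS1, NDUFA4L2, ETV1 and SLIT1. For GBX1 the first 5 were TEX11 (0.786), CNNM3 (0.772), LGALS9 (0.767), LRG1 (0.728) and COX6B2 (0.717). Each of those was highest in 42 h B1, for example TEX11 at 40.8 TPM and COX6B2 at 116 TPM, and without the 3 libraries with fewest genes none of them was among the first 5.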

How the data were processed

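RNA was measured in 59 libraries by poly(A) RNA sequencing with single reads of 51 bp, from 100 ng of total RNA and with 18 PCR cycles, per the labels' protocols. The deposited values are TPM of 19084 gene symbols, made by the authors with CASAVA 1.8.2, Bowtie 0.12.8 and RSEM 1.2.3 on hg19, per the submitters' processing notes, and neither labels nor file name the gene annotation. TPM summed to between 999997 and 1000001 per library, so depth is unknown. RSEM apportions reads shared by near-identical genes, which makes values of paralogs uncertain. The third 48 h library was left out by the submitters, per the design text.

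Values were analysed as log2(TPM + 1) with limma 3.58.1 in R 4.3.3, with a trend of variance on intensity, and p-values were adjusted (Benjamini-Hochberg, threshold 0.05) over the 15305 genes with at least 1 TPM in at least 3 libraries. GBX1 and GBX2 passed this filter, and EGR2, FGF3 and PHOX2A did not. The course was tested by the F statistic of a natural spline (4 df) in exposure time, and windows were contrasts of 4 time points each in a fit of 20 time-point means. Permutation tests used 100000 resamples (SciPy 1.17.1, Python 3.11.15) and were chosen after seeing the data, and figures were drawn with matplotlib 3.10.9. The code was tested on simulated data.

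The members, gene lists and tests were chosen with earlier results of these data known. Apart from the members, up to 4 genes per list were named: those with the largest difference past the threshold in 54 to 72 h or 18 to 24 h minus 2 to 8 h and a window mean of at least 5 TPM, plus relatives and partners of a member that are at 0 or did not pass. For each member that reached a mean of 2 TPM at some time, the 5 genes most correlated with it were named too. Genes called in a list whose other members are counted were also named where their role differs from the list's name. Neural stem cell markers at 0 in some libraries were named as well, and so were some further genes that show what the count of a list holds. Some genes of the lists are not reported here, and the counts leave them out. Promoters came from the RefSeq table on GRCh38.p14, in which all 5 symbols matched. Alternatives varied the pseudocount, filter, scaling, replicate block, spline, windows and libraries.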

Additional observations from a re-analysis of the deposited data

How the results depend on the processing

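The rise of GBX2 between 54 to 72 h and 2 to 8 h and its course passed under every alternative run, with differences from 2.18 to 4.47 on the log2 scale. Its 54 to 72 h minus 30 to 48 h difference was 1.38 and passed without the 3 libraries with fewest genes. It passed under no other alternative, was 0.76 (adjusted p = 0.490, limma) without the 6, 30 and 54 h time points and 2.11 (adjusted p = 0.192, limma) with a pseudocount of 0.1, and had adjusted p between 0.212 and 0.256 (limma) with each replicate left out. GBX1 had no value under the filter of 5 TPM in 3 libraries, and passed nowhere. Its 18 to 24 h minus 2 to 8 h difference ranged from -0.33 to 0.26 with each replicate left out, turning positive without A2. Its 30 to 48 h minus 18 to 24 h difference ranged from -0.13 to 0.31 and turned negative without B1, and was -0.26 without the 3 libraries with fewest genes. The time at 50% of the highest mean was 66.4 h for GBX2 in B1 alone, and for GBX1 9 h in A1, 2.12 h in A2 and 2 h without the 3 libraries; the cause was not tested.

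With each replicate left out, genes past the threshold numbered 3232 to 5317 for the course (5629 with all), 1605 to 2427 for 18 to 24 h minus 2 to 8 h (3057), 86 to 146 for 30 to 48 h minus 18 to 24 h (239), 338 to 728 for 54 to 72 h minus 30 to 48 h (852) and 2975 to 4247 for 54 to 72 h minus 2 to 8 h (4606). Fewer libraries entered these fits. Without the 3 libraries with fewest genes 467 genes passed for 30 to 48 h minus 18 to 24 h and 1334 for 54 to 72 h minus 30 to 48 h. The narrower windows gave 1802 genes for 22 and 24 h against 2 and 4 h, and 1494 for 66 and 72 h against 36 and 42 h.

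Among the other named genes that were recomputed, 6 of 820 values changed sign, 48 others lost their call and 7 gained a call. Lost calls include the course of NAB2 with a pseudocount of 0.1 (adjusted p = 0.0629, limma) and of LMX1B without replicate A1 (adjusted p = 0.0685, limma). With 22 and 24 h against 2 and 4 h, HOXB1 and WNT1 lost theirs (adjusted p = 0.124 and 0.169, limma). Of the sign changes, EPHA4 was at -0.20 with 66 and 72 h against 2 and 4 h. For 18 to 24 h minus 2 to 8 h, EGR1 ranged from -0.00346 to 0.51 and FGF12 from -0.073 to 0.70 with each replicate left out, and with 22 and 24 h against 2 and 4 h EGR1 was at -0.55, FGF9 at 0.033 and FGF18 at -0.00956.

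The labels A1, A2 and B1 are shared between time points, but nothing says that they pair cultures. Deviations from the time-point means correlated with a median of 0.0049 over 551 pairs of time points with the same label. Over 1102 pairs with different labels the median was -0.0023. The ranges overlapped, from -0.181 to 0.158 with the same label and from -0.187 to 0.215 with different labels. These values do not say whether libraries of the same label shared a culture or batch, which was not tested. With the replicate block GBX2 differed by 2.30 (adjusted p = 1.355e-05, limma) for 54 to 72 h minus 2 to 8 h, 4610 genes passed there, and no call on GBX1 or GBX2 changed.

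TPM without counts give no detection limit. Most values of EGR2, FGF3, PHOX2A and GBX1 are zeros, and their absence from the cells is not shown.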

Other observations

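Several other gene groups moved between 54 to 72 h and 2 to 8 h, the windows in which GBX2 differed. Of 14 genes of the dorsal neural tube and dorsal horn 10 were tested, of which 5 rose and 1 fell, with a median difference of 0.69 on the log2(TPM + 1) scale. MSX1 averaged 57.0 TPM late against 11.2 TPM early, LMX1A 29.7 against 4.72 TPM and OLIG3 42.7 against 185 TPM. LHX9, BARHL1 and ATOH1 were at 0 in all libraries, and LBX1 was above 0 in 7. The count pools both regions and does not speak for the dorsal horn alone. Among 10 neural stem cell markers 7 rose and 2 fell, and of 10 neural crest genes 4 rose and 2 fell. Caudal and tail bud genes gave 4 rises and 1 fall among 7 tested, and T, the tail bud factor, was at 0 in all libraries. CYP26A1, counted in this list and not with the retinoic acid response genes, averaged 300 ± 103 TPM at 54 to 72 h, against 1757 ± 1027 TPM at 2 to 8 h. Of 11 WNT feedback genes 5 rose and 2 fell, and of 11 retinoic acid response genes 1 rose and 5 fell. Hypoxia genes gave 5 rises and 1 fall among 10, and housekeeping genes 1 of each among 8. Of 7 tested myelin and Schwann cell genes, a setting in which EGR2 is known, 1 rose and 3 fell, and SOX10 was above 0 in 5 of 59 libraries. These lists were chosen with earlier results of these data known, and 14.3% of all tested genes passed upward and 15.8% downward.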
